A study of Homo sapiens with 6 samples.

Results

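The translation initiation and elongation factors described here are 42 genes, found by symbol among the 62111 genes listed in both deposited tables. They comprise the EEF1 genes of elongation, the initiation factors EIF1 to EIF6, the poly(A)-binding protein gene PABPC1, and the termination factors ETF1 and GSPT1. Of these, 9 were taken as 5′ TOP genes by name (the 4 EEF1 genes, PABPC1, EIF3E, EIF3F, EIF3H and EIF3L) and were set beside the other 33. RNA was sequenced from K562, a human leukaemia cell line with erythroid features, in 3 libraries with wild-type SF3B1 (WT) and 3 with SF3B1-K700E. SF3B1 is a subunit of the U2 snRNP that helps to choose the branch point in pre-mRNA splicing, and the K700E substitution recurs in blood cancers. The labels give no agent, time point, clone, culture or way in which the substitution was made, and do not say whether replicates came from separate cultures, so each p-value reflects no more than the spread among these libraries.

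Translation starts when initiator tRNA, carried by EIF2, joins the small ribosomal subunit together with EIF1, EIF1A, EIF3 and EIF5. EIF4 proteins bring this complex to the capped mRNA, it scans to a start codon, and the EEF1 complex then delivers each aminoacyl-tRNA to the ribosome. Many genes of this machinery, and nearly all ribosomal protein genes, begin their mRNAs with a C and an unbroken run of pyrimidines at the cap, the 5′ TOP tract, through which their translation follows mTORC1 signalling by way of LARP1.

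The tract can be read at the annotated starts of the genes, and the sequences below show examples with and without one. Each line runs 5′ to 3′ from 5 bases before the RefSeq start to the base 25 of the transcript (GRCh38.p14), and capitals mark a C followed by at least 4 bases that are each C or T, beginning exactly at the start. The first lines are TOP members by the rule, the next are 4 of the 7 members outside it that hold a tract, and EIF1 and EIF4G1 are members without one at the exact start whose levels are described later.
EEF1A1: acgttCTTTTTCgcaacgggtttgccgcca
EEF1B2: cgggtCCTTTTTCCTCTCTTCagcgtgggg
EIF3F: gcctcCTTCTTTCTCgacaagatggccaca
EEF1G: ggcttactttgcggcagcgccgagaacccc
EIF3D: gtttcCTCTTTTCCTggtttctcaagagtg
EIF3M: gttccCTTTTCCggtcggcgtggtcttgcg
EIF2A: ggtttCTCTTTCCgggacaacatggcgccg
EIF4A2: gctgtCTTTTCagtcgggcgctgagtggtt
EIF1: cctctgccccagtcactgagccgccgccga
EIF4G1: gagccggaaatggttgtggactacgtctgt

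The tract of EEF1B2 was 16 bases long, at one of its 2 listed starts, those of EIF3F and EIF3D 10 bases and that of EEF1A1 7 bases. In GRCh38.p14 the printed EEF1A1 start lies at chr6:73521013-73521042 on the minus strand, that of EEF1B2 at chr2:206159890-206159919 on the plus strand and that of EIF3F at chr11:7987332-7987361 on the plus strand. RefSeq starts were matched for 34 of the 42 members, not for EEF1D, EIF2S2, EIF3A, EIF3E, EIF3G, EIF3H, EIF3L and PABPC1. A tract began exactly at a start in 3 of the 4 TOP members matched and in 7 of the 30 others (EIF2A, EIF2S3, EIF3D, EIF3K, EIF3M, EIF4A2 and EIF4B). The same held for 47 of 63 cytosolic ribosomal protein genes (74.6%) and for 1404 of 27305 genes in the RefSeq table (5.14%). Among the tested genes with a matched start it held for 762 of 10027 (7.60%). When the tract could begin within 5 bases of the start on the same strand, the counts were 3 of 4, 13 of 30, 54 of 63 (85.7%) and 6886 of 27305 (25.2%). For the tested genes with a matched start the wider count was 2937 of 10027 (29.3%). The count at the exact start was added after the sequences were seen, and a match describes the letters only.

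Read depth was high, with recovered totals of 104.6 to 136.6 (in units of 1000000 read ends) per library, and the fewest behind any tested member value were 2600 (EIF3C). The erythroid genes GATA1, TAL1, KLF1, HBG1, HBG2, HBZ and ALAS2 all lay above 1 TPM in both groups. Of 6 markers of other cell types 5 also lay above 1 TPM, with a summed level of 277 to 295 TPM in WT and 359 to 600.4 TPM in K700E, and CD3D among them rose (limma adjusted p 0.0289). Their part in the results below was not tested. WT replicate 3 lay between the other WT libraries in 75.9% of tested genes, and in 32 of the 40 tested members, and its relation to them is not given in the labels. Without it limma called 0 genes of the whole table, with 1462 at an unadjusted p under 0.05. The libraries also differed along GC content, with a correlation across genes, which are not independent replicates, between GC and a library's deviation of -0.65 in WT replicate 1 and 0.54 in WT replicate 2. Among members the same was seen: WT replicate 1 was the highest WT library in 15 of 17 members under 45% GC and the lowest in 5 of 6 with 55% or more. The WT and K700E libraries were deposited in separate tables, so any difference in how the tables were made and the genotype cannot be told apart.

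No translation factor passed the test between K700E and WT. Of the 42 members 40 reached a mean of 1 TPM and were tested with limma, and 0 had an adjusted p under 0.05, where 1.38% of all 15493 genes tested did (1.15% higher and 0.232% lower in K700E). An unadjusted p under 0.05 was found for 9 members, and for 16.5% of all genes. EIF3E, EIF3F, EIF3H, EIF3L, EEF1A1, EEF1B2 and EIF1 were lower in every K700E library than in every WT library. EIF4G1, EIF5A, EIF2B5 and EIF3B were higher in every K700E library, although under TMM scaling, a rescaling of whole libraries, 16 members were lower in this sense and 1 higher (12.8% and 8.74% of all genes). As deposited, the 7 lower members were 17.5% of the 40 and the 4 higher ones 10%, against 4.99% and 19.0% of all genes tested. Without WT replicate 3 the counts were again 7 and 4, against 5.60% and 20.7% of all genes. Over all genes tested the median log2 difference was 0.13, and TMM scaling moved it to -0.05, so group medians are given relative to it. With TMM scaling 2 members were called lower (0.342% of all genes were, and 0.723% higher), and with GC correction 4 (1.32%, and 1.86% higher). They are named below with their values. The libraries are bulk RNA, in which fewer cells of a kind and less RNA per cell cannot be told apart.

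**Figure D1:**
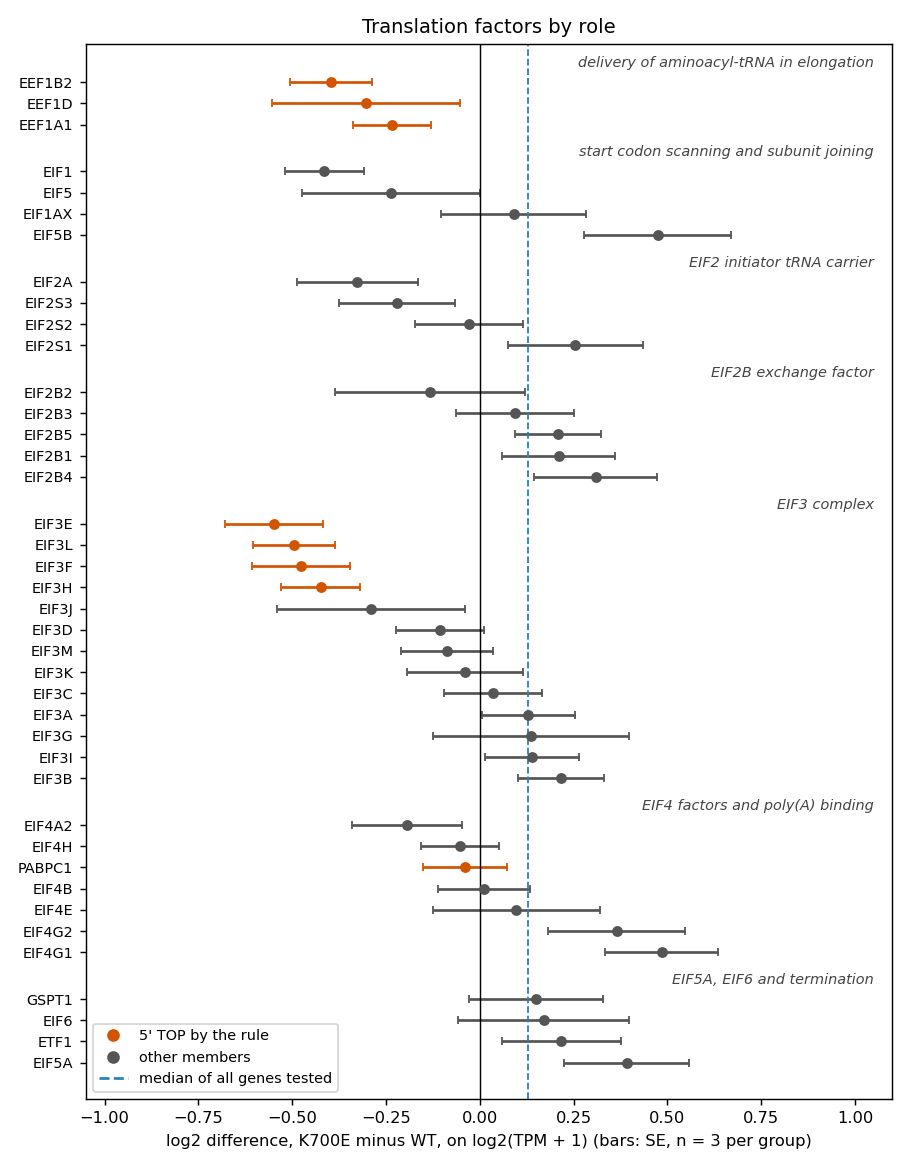
Log2 difference between 3 K700E and 3 WT libraries on the log2(TPM + 1) scale (x axis) for the 40 tested members, grouped by role (y axis). Points are limma estimates, bars their SE, orange marks the TOP members and the dashed line is the median of all genes tested at 0.13. All 8 tested TOP members lie left of the dashed line.

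The TOP members lay lower than the other members. The 8 tested TOP members had a median log2 difference of -0.41 between K700E and WT, or -0.54 relative to the median gene, and lay from -0.55 (EIF3E) to -0.04 (PABPC1). All 8 lay below the median gene, and 6 of them (75%) were lower without overlap between the groups, against 4.99% of all genes tested. The other 32 tested members had a median of 0.10, or -0.03 relative to the median gene, ranging from -0.41 (EIF1) to 0.49 (EIF4G1), and 17 of them lay below it. By library, the median of the TOP members relative to all genes was -0.05, 0.10 and -0.05 in WT replicates 1, 2 and 3, and -0.57, -0.52 and -0.54 in K700E replicates 1, 2 and 3. The same medians of the other members were 0.07, -0.02 and -0.04 in WT and 0.08, -0.03 and -0.12 in K700E, with no gap between the groups. The gene lists were chosen with these data known, so no p-value is given for them.

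**Figure D2:**
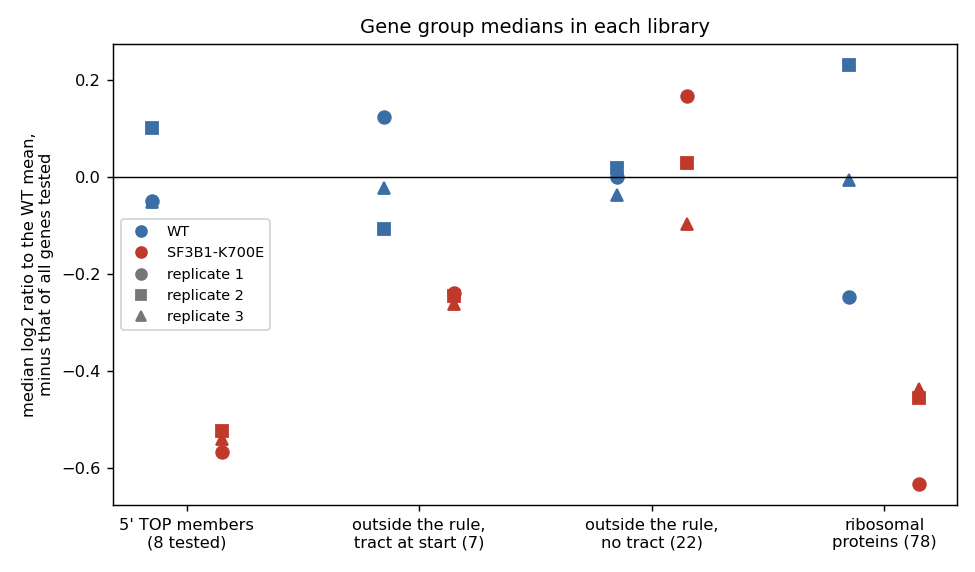
Median log2 ratio to the WT mean in each library, minus that of all genes tested (y axis), for 4 gene groups (x axis). Blue is WT, red SF3B1-K700E and shapes mark replicates. The 8 tested TOP members lie at -0.57 to -0.52 in the K700E libraries and at -0.05 to 0.10 in WT, while members outside the rule without a tract overlap between the groups.

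Elongation began with the most abundant member. EEF1A1, the GTPase that carries aminoacyl-tRNA to the ribosome (ENSG00000156508, GRCh37 chr6:74225473-74231444, minus strand), stood at 11271, 10704 and 10598 TPM in WT against 9992, 8792 and 8935 TPM in K700E. Every K700E library lay below every WT library, and EEF1A1 took 1.13, 1.07 and 1.06% of all TPM in WT and 0.999, 0.879 and 0.893% in K700E. Its means were 10858 ± 362 and 9239.6 ± 655 TPM (SD, n = 3 each), with a log2 difference of -0.23 (SE 0.10, limma adjusted p 0.315). The tables list 49 EEF1A1 pseudogenes, which can share its reads, the highest being EEF1A1P5 at 89.5 to 181 TPM.

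EEF1B2, the exchange factor that reloads EEF1A with GTP (ENSG00000114942, GRCh37 chr2:207024309-207027652, plus strand), was at 1835, 2102 and 1866 TPM in WT against 1556, 1420.0 and 1428 TPM in K700E. The groups again did not overlap. The log2 difference was -0.40 (SE 0.11) with a limma adjusted p of 0.141. EEF1D, another exchange subunit, stood at 28.0, 57.8 and 45.9 TPM in WT against 33.005, 33.02 and 35.9 TPM in K700E. WT replicate 1 lay under every K700E library and the other WT libraries above them, so EEF1D overlapped (log2 difference -0.30, SE 0.25, limma adjusted p 0.598). The estimate rested on single libraries, at -0.59 without WT replicate 1 (limma adjusted p 0.101) and -0.08 without WT replicate 2 (limma adjusted p 0.898). EEF1D has a GC content of 60.6%, and its log2 difference with GC correction was -0.41 (limma adjusted p 0.0928). The median gene moved from 0.13 to 0.00 with this correction. Relative to the median gene EEF1D was -0.43 as deposited and -0.41 with GC correction. The part of GC content in the low value of WT replicate 1 was not tested. EEF1D stood far under EEF1B2, and other gene models on the opposite strand share 19.9% of its exon bases. The one with the largest overlap was at 1.04 to 1.62 TPM. The part of this overlap in the level of EEF1D was not tested.

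EEF1G, the scaffold subunit of the EEF1B complex, was listed at 0 in all 6 libraries, where 3 counts would have been 0.0358 to 0.0478 TPM. Of its exon bases 99.5% are shared with a second gene model on the same strand, ENSG00000255508, which was listed at 1.41 to 2.00 TPM. EIF4A1, the main helicase of the cap-binding complex, was also listed at 0 throughout, where 3 counts would have been 0.0295 to 0.0393 TPM, and 100% of its exon bases are shared with other models, one of which (ENSG00000264772) was at 2.05 to 2.21 TPM. No level can be read for either gene, and the part of the shared exons in these zeros was not tested. In all, 18 of the 42 members share exon bases with another gene model and 3 share over 50% (EEF1G, EIF4A1 and EIF3L).

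The start codon factors split in both directions. EIF1, which holds the scanning ribosome open until a start codon is met (ENSG00000173812, GRCh37 chr17:39845137-39848920, plus strand), was at 972, 936 and 890.4 TPM in WT against 744, 671 and 685 TPM in K700E. All K700E libraries lay below all WT libraries, by more than the spread within either group. Its log2 difference was -0.41 (SE 0.11), the lowest outside the TOP members, with a limma adjusted p of 0.122 that ran from 0.124 to 0.415 when 1 library was left out. EIF1 fell past the threshold with TMM scaling (limma adjusted p 0.0473) and with GC correction (limma adjusted p 0.0282).

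EIF5B, the GTPase that joins the large ribosomal subunit, stood at 116, 78.1 and 88.9 TPM in WT against 155, 129.5 and 108 TPM in K700E. Only WT replicate 1 reached into the K700E range, above K700E replicate 3. The log2 difference of EIF5B was 0.47 (SE 0.20, limma adjusted p 0.287). EIF5, which triggers GTP hydrolysis by EIF2, showed a single high library, K700E replicate 1 at 133 TPM against 75.3 and 72.6 TPM in the other K700E libraries and 100.4 to 117 TPM in WT. EIF1AX, another scanning factor, had a log2 difference of 0.09.

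The EIF2 complex, which carries the initiator tRNA, had members on both sides of 0. EIF2S1, the subunit whose phosphorylation slows initiation under stress, was at 56.5, 42.4 and 46.2 TPM in WT against 69.7, 55.9 and 48.7 TPM in K700E, with overlap and a log2 difference of 0.26 (SE 0.18, limma adjusted p 0.530). EIF2S2 and EIF2S3, the other subunits, had log2 differences of -0.03 and -0.22. EIF2A, a separate protein that can bring initiator tRNA to some mRNAs, was at 242, 172 and 194 TPM in WT against 175, 164 and 142 TPM in K700E. Only WT replicate 2 reached into the K700E range. Its log2 difference was -0.33 (SE 0.16, limma adjusted p 0.369), and EIF2A fell past the threshold with GC correction (limma adjusted p 0.0253).

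EIF2B, the pentameric unit that reloads EIF2 with GTP, had subunits from -0.13 to 0.31. EIF2B5, its catalytic subunit, was at 93.9, 92.9 and 90.7 TPM in WT against 111, 110.1 and 100.3 TPM in K700E. Its groups did not overlap, but the log2 difference of 0.21 (SE 0.11, limma adjusted p 0.417) was near that of the median gene. Under TMM scaling it was 0.01, where the median gene lay at -0.05. Relative to the median gene EIF2B5 was 0.08 as deposited and 0.06 under TMM scaling. EIF2B4 had the highest log2 difference of the complex, 0.31 (SE 0.16, limma adjusted p 0.401), at 41.6, 58.7 and 50.9 TPM in WT against 67.2, 56.1 and 63.3 TPM in K700E, with overlap. EIF2B2 had the lowest, -0.13, and again K700E replicate 1 stood alone at 28.9 TPM, against 16.0 and 14.5 TPM in the other K700E libraries and 19.5, 22.5 and 20.6 TPM in WT. Across the members K700E replicate 1 was the highest K700E library in 31 of 40.

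EIF3, the 13-subunit scaffold that holds the small ribosomal subunit, divided along the TOP rule, which goes by gene name. The 4 TOP subunits were each lower in all K700E libraries than in all WT libraries, at 0.680 to 0.744 of the WT mean, and none of the other 9 was. Of all genes tested 4.99% were lower in this sense. This division is not one by the tract as read at the starts. Among the 4 TOP subunits only EIF3F had a matched start, and EIF3D, EIF3K and EIF3M of the other 9 also hold a tract. EIF3E (ENSG00000104408, GRCh37 chr8:109213445-109260946, minus strand) stood at 1532, 1174 and 1305 TPM in WT against 861, 962 and 906 TPM in K700E. Its means were 1337 ± 181 and 909.9 ± 50.6 TPM (SD, n = 3 each). The log2 difference of -0.55 (SE 0.13, 95% interval -0.85 to -0.24) was the lowest of all members, with a limma adjusted p of 0.106, and 2.81% of tested genes had a lower one.

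EIF3L (ENSG00000100129, GRCh37 chr22:38244875-38285414, plus strand), which binds EIF3K in the complex, stood at 247, 257 and 239 TPM in WT against 181, 179.5 and 165 TPM in K700E. Its log2 difference of -0.50 (SE 0.11) had the smallest limma adjusted p of the members, 0.0889, which ran from 0.0914 to 0.358 when 1 library was left out. Other gene models share 52.0% of the exon bases of EIF3L, 41.6% on the same strand. The one with the largest overlap was at 0.103 to 0.154 TPM. The part of this overlap in the level of EIF3L was not tested.

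EIF3F (ENSG00000175390, GRCh37 chr11:7991798-8023409, plus strand) and EIF3H (ENSG00000147677, GRCh37 chr8:117654369-117778494, minus strand) are the 2 MPN-domain subunits and lie together in the complex. EIF3F was at 116, 147 and 125 TPM in WT against 90.1, 91.9 and 94.6 TPM in K700E, and EIF3H at 311, 326 and 305 TPM in WT against 233, 239 and 229 TPM in K700E. Both had a narrow K700E range that lay wholly under WT. Their log2 differences were -0.48 (SE 0.13) and -0.42 (SE 0.10), with limma adjusted p of 0.138 and 0.114. The pseudogene EIF3FP3 was at 12.7 to 24.5 TPM, and pseudogene levels came to 15.7% of that of EIF3F. With GC correction EIF3E (limma adjusted p 0.0347) and EIF3L (0.0157) fell past the threshold, EIF3L also with TMM scaling (0.0418), while EIF3F and EIF3H did not pass in either.

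The other 9 EIF3 subunits had log2 differences from -0.29 (EIF3J) to 0.22 (EIF3B), 5 of them below the median gene, and none had an unadjusted p under 0.05. EIF3B, the RNA-binding core subunit, was at 287, 279 and 297 TPM in WT against 368, 317 and 319.7 TPM in K700E. All K700E libraries lay above WT, at a log2 difference of 0.22 (SE 0.12, limma adjusted p 0.404), which was 0.02 under TMM scaling. Relative to the median gene EIF3B was 0.09 as deposited and 0.07 under TMM scaling. EIF3A and EIF3C, which form the core with EIF3B, had log2 differences of 0.13 and 0.03. EIF3C stood at 17.1 to 19.1 TPM, far under its partners per length, and its near-identical copy EIF3CL at 0.0905 to 0.282 TPM, so the split of reads between the copies is uncertain.

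**Figure D3:**
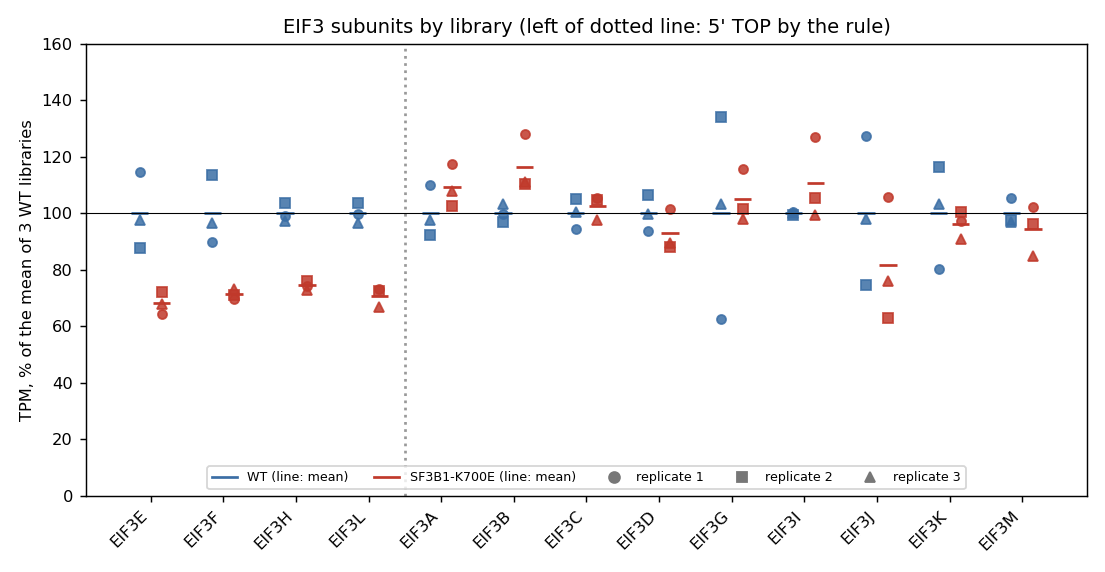
TPM of each EIF3 subunit in each library, as a percentage of the mean of the 3 WT libraries (y axis, from 0), with short lines for group means. Subunits left of the dotted line are TOP members, in which the K700E libraries (red) lie below the WT libraries (blue). To the right the groups overlap in every subunit but EIF3B.

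Summed over the complex, the 4 TOP subunits came to 2206, 1904 and 1973 TPM in WT against 1366, 1472 and 1395 TPM in K700E, with no overlap. The other 9 came to 2797, 3137 and 3006 TPM in WT against 3351, 2928 and 2839 TPM in K700E, with overlap. The ratio of the first sum to the second was 0.684 ± 0.0940 in WT and 0.467 ± 0.0520 in K700E (SD, n = 3 each), and the lowest WT ratio (0.607) lay above the highest K700E ratio (0.503). This ratio is taken within each library, so scaling a whole library does not change it. EIF3E makes up most of the first sum. The TOP subunits had a lower median GC content (40.4%) than the other 9 (51.2%), and with GC correction the log2 differences of EIF3E, EIF3F, EIF3H and EIF3L were -0.68, -0.60, -0.55 and -0.63, those of the median gene being 0.00.

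Of the TOP members 4 lie on chromosome 8, and EIF3E, EIF3H and PABPC1 fall between 100 and 120 Mb of it. The other 44 tested genes of that stretch had a median log2 difference of 0.13, -0.00 relative to the median gene. Of these, 2 did not overlap on the lower side (4.55%, against 4.99% of all genes tested). PABPC1, which binds poly(A) tails and EIF4G (GRCh37 chr8:101715144-101734316, minus strand), stood at 2621, 2187 and 2314 TPM in WT against 2378, 2247 and 2287 TPM in K700E. WT and K700E libraries were interleaved. Its log2 difference of -0.04 (SE 0.11, limma adjusted p 0.894, 95% interval -0.30 to 0.22) was the nearest to 0 of the TOP members. The interval holds -0.23, the estimate of EEF1A1, but not -0.41, the median of the tested TOP members.

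Around the cap, the scaffold EIF4G1 (ENSG00000114867, GRCh37 chr3:184032283-184053146, plus strand) was at 112, 156 and 144 TPM in WT against 201, 182 and 189 TPM in K700E. Every K700E library lay above every WT library, with WT replicate 1 the lowest. The means were 137 ± 22.6 and 191 ± 9.57 TPM (SD, n = 3 each), a log2 difference of 0.49 (SE 0.15, limma adjusted p 0.179), and the adjusted p ran from 0.146 to 0.466 when 1 library was left out. EIF4G1 has a GC content of 57.4%, and with GC correction its log2 difference was 0.36 (limma adjusted p 0.0640). The median gene moved from 0.13 to 0.00 with this correction. Relative to the median gene EIF4G1 was 0.36 as deposited and 0.35 with GC correction. EIF4G2, a related scaffold without the EIF4E-binding part, had a log2 difference of 0.36 (limma adjusted p 0.377) with overlap. EIF4A2, the helicase closely related to EIF4A1, was at 847, 601 and 688 TPM in WT against 622, 593 and 634 TPM in K700E, with overlap (log2 difference -0.19, SE 0.15, limma adjusted p 0.554). The EIF4A2 estimate was -0.06 without WT replicate 1 and -0.31 without WT replicate 2. EIF4E, which binds the cap itself, EIF4B and EIF4H, which assist the helicase, had log2 differences of 0.10, 0.01 and -0.05. EIF4E was low, at 11.3 to 19.8 TPM, and its pseudogenes came to 35.7% of its level.

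EIF5A, the hypusine-bearing factor that helps the ribosome past stalling sequences, was at 332, 429 and 407 TPM in WT against 609, 434 and 497 TPM in K700E. The groups did not overlap, but K700E replicate 2 lay only just above WT replicate 2. Its log2 difference was 0.39 (SE 0.17, limma adjusted p 0.297). ETF1 and GSPT1, the release factors that end translation at a stop codon, had log2 differences of 0.22 and 0.15. GSPT1 was at 103, 70.7 and 82.0 TPM in WT against 109.6, 89.5 and 83.1 TPM in K700E, interleaved (limma adjusted p 0.727). EIF6, which keeps the large subunit from joining too early, had a log2 difference of 0.17.

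**Figure D4:**
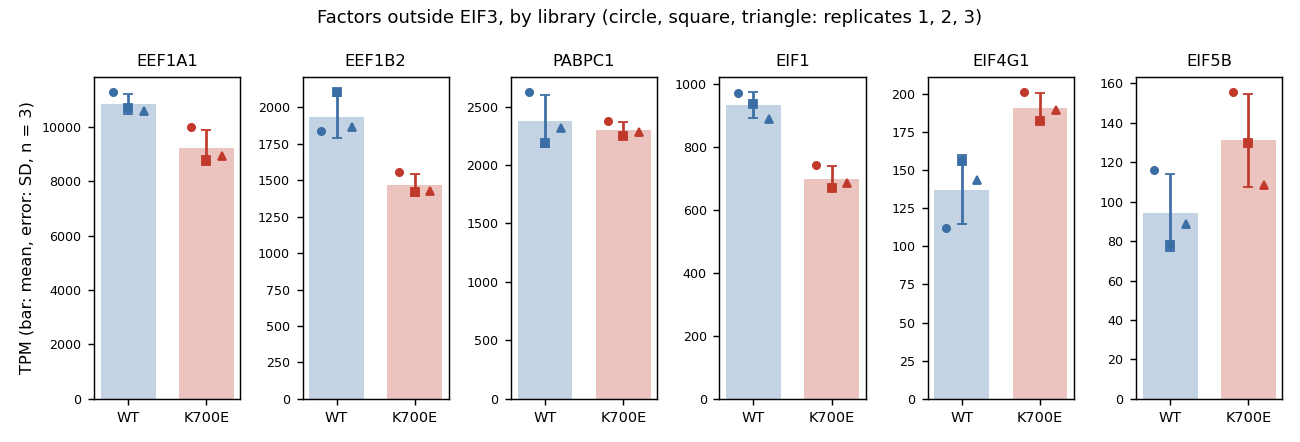
TPM (y axis, from 0, a scale per gene) of 6 factors outside EIF3 in WT (blue) and SF3B1-K700E (red) libraries (x axis). Bars are means, error bars the SD of 3 libraries, and shapes mark replicates. EEF1A1, EEF1B2 and EIF1 are lower and EIF4G1 is higher in every K700E library, while PABPC1 and EIF5B overlap.

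Taken as RNA, the 42 members came to 2.68, 2.52 and 2.52% of TPM in WT and 2.46, 2.21 and 2.22% in K700E. The 9 TOP members made up most of this, at 17962, 16954 and 16798 TPM in WT against 15325, 13965 and 14079.7 TPM in K700E, with no overlap. The other 33 came to 8502 ± 264 TPM in WT against 8496 ± 658 TPM in K700E (SD, n = 3 each). EEF1G, a TOP member, and EIF4A1, outside the TOP members, added nothing to these sums, and no level can be read for either. Among the members with a level, the lower share thus lay in the TOP members, of which EEF1A1 is the largest.

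Members outside the rule that hold a tract at their start had lower values than those without. The 7 with a tract, among them EIF3D, EIF3M, EIF2A and EIF4A2 printed above, had a median log2 difference of -0.11, or -0.23 relative to the median gene, and all 7 lay below it, though 0 of the 7 separated the groups. By library their median relative to all genes was 0.12, -0.11 and -0.02 in WT and -0.24, -0.25 and -0.26 in K700E. The 22 tested members with a matched start and no tract had a median of 0.16, or 0.03 relative to the median gene, with 9 below it. EIF1 was the lowest of these, but a tract begins within 5 bases of its start, so the wider definition counts it among those with a tract. The same holds for EIF5, EIF3C, EIF3J, EIF4G1 and EIF4G2, which lay from -0.29 (EIF3J) to 0.49 (EIF4G1). EIF4G1 has 3 listed starts, and the tract lies near one other than the start printed above. Over the whole table, the 762 tested genes with a tract lay at -0.09 relative to the median gene, 482 of them below it, and the 9267 with a known start and no tract at 0.01. Without members and ribosomal protein genes, the 705 with a tract lay at -0.07. This split was made after the data were seen and is a description.

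Other translation genes gave the same picture of no calls. The 38 listed factors outside the 42 were other initiation, elongation and termination factors, cap and poly(A) regulators, and the EIF2 kinases with their phosphatase. Of these 36 were tested and 0 passed, where 1.38% of all genes tested did. Their median log2 difference was 0.10, with 18 on either side of the median gene. EIF4G3, the third EIF4G scaffold, was at 31.3, 31.9 and 28.8 TPM in WT against 46.1, 40.6 and 39.8 TPM in K700E, without overlap (log2 difference 0.45, limma adjusted p 0.157). PDCD4, an inhibitor of the EIF4A helicase, was also higher in every K700E library, at 65.6, 43.2 and 52.5 TPM in WT against 75.4, 79.0 and 80.1 TPM in K700E (log2 difference 0.55, limma adjusted p 0.172). DENR, a recycling and reinitiation factor, had a log2 difference of 0.45 (limma adjusted p 0.173). EIF2AK4, the kinase that phosphorylates EIF2S1 when amino acids are short, was lower in every K700E library, at 32.6, 28.1 and 29.97 TPM in WT against 24.9, 15.4 and 22.1 TPM in K700E (log2 difference -0.54, limma adjusted p 0.229). Of the 36, 9 were higher without overlap (25%, against 19.0% of all genes) and 1, EIF2AK4, lower (2.78%, against 4.99%). In the other lists the smallest limma adjusted p was 0.383 for EEF1A2 among elongation factors and 0.393 for PELO among termination and rescue factors.

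Among 7 other 5′ TOP genes outside the ribosome 0 passed, where 1.38% of all genes tested did. Of the 7, 6 were under the median gene, and their median was -0.28 relative to it. TPT1, an abundant TOP mRNA, was at 547, 639 and 551 TPM in WT against 495, 365 and 382 TPM in K700E, lower in every K700E library (log2 difference -0.49, limma adjusted p 0.173). NAP1L1, a histone chaperone gene, and RACK1, a ribosome-bound scaffold gene, had log2 differences of -0.28 and -0.29 (limma adjusted p 0.322 and 0.419). EEF2, the translocase of elongation, was at 1556, 3406 and 2811 TPM in WT against 2019.8, 2087 and 2556 TPM in K700E, with overlap (log2 difference -0.16, limma adjusted p 0.823). WT replicate 1 was low for EEF2, as it was for EEF1D. The 78 tested cytosolic ribosomal protein genes lay at a median of -0.50 relative to the median gene, near the -0.54 of the TOP members. By library this median was -0.25, 0.23 and -0.01 in WT, more widely spread than that of the TOP members, and -0.63, -0.46 and -0.44 in K700E. The ribosomal median was -0.62 without WT replicate 1 and -0.36 without WT replicate 2. Of the ribosomal protein genes 0 were called, against 1.38% of all genes tested. On the lower side 49 of them (62.8%) did not overlap, against 4.99% of all genes tested. The ribosomal protein genes took 19.6, 25.6 and 22.4% of TPM in WT and 16.8, 17.3 and 17.5% in K700E.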

How the data were processed

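TPM per gene, in which reads are divided by the length of the gene and each library sums to 1000000, was deposited by the authors as a table for each genotype. Tools named in the submitters' processing notes are TopHat2 2.1, cutadapt 2.10, DESeq2 and featureCounts 2.0.1, with the build GRCh37 (hg19). Per the file headers, the WT columns carry names in the form that STAR gives, so the aligner is not settled, and for strand settings the sources used here give nothing. Of 62111 gene IDs, 94.3% matched a symbol. TPM multiplied by the deposited length gave whole reads for 100% of values above 0 (tolerance 0.01), so both tables were scaled alike and were tested together.

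The 15493 genes that averaged 1 TPM or more entered limma 3.58.1 as log2(TPM + 1) (R 4.3.3, empirical Bayes with trend, genotype as the only term, two-sided, Benjamini-Hochberg at 0.05). Fold changes on this scale understate low genes. An exact permutation test of 3 against 3 libraries cannot reach 0.05. Other settings tried were no filter or a minimum of 5 TPM, pseudocounts of 0.1 and 5, median-ratio and TMM scaling, no trend, limma-voom on recovered reads, a loess correction of each library for GC, known for 97.7% of these genes, the replicate block and leaving out each library. Tables were handled with Python 3.11.15, pandas 2.3.3 and numpy 2.4.6, and figures with matplotlib 3.10.9.

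Values per library are given for TOP members, members without overlap and the lowest and highest of each role, and up to 3 genes by smallest adjusted p per other list. Members and lists were chosen with earlier results of these data known. Gene coordinates are GRCh37 as deposited. RefSeq starts are GRCh38.p14 and were joined by symbol. GC content came from GENCODE v29 transcripts, joined by gene ID. Splicing and isoforms were not analysed here.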

Additional observations from a re-analysis of the deposited data

How the results depend on the processing

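The count of all genes called, 214, was 92 with a minimum of 5 TPM, 381 with limma-voom on recovered reads, 482 with GC correction and 67 with the replicate block. With no filter on low values limma called 0 (4891 at an unadjusted p under 0.05), and leaving out 1 library gave 0 to 182, the 0 being without WT replicate 3 (1462 unadjusted). The count of members called, 0, was 2 with TMM scaling (EIF1 and EIF3L) and 4 with GC correction (EIF1, EIF2A, EIF3E and EIF3L), against 0.342% and 1.32% of all genes called lower, and it stayed 0 under every other alternative and without any 1 library. Members without overlap, 11 (7 lower and 4 higher), became 16 with median-ratio scaling (14 lower and 2 higher) and 17 with TMM scaling (16 lower and 1 higher). With median-ratio scaling the share of all genes was not taken, so that count cannot be set against it. Of all genes, 12.8% were lower and 8.74% higher without overlap under TMM scaling. When 1 library was left out 11 to 21 members did not overlap (21 without WT replicate 1), but fewer libraries are easier to separate for any gene. Of these fits the share of all genes was taken only without WT replicate 3 (11 members, with 5.60% of all genes lower and 20.7% higher), so the other counts cannot be set against it. Relative to the median gene, the median of the TOP members (-0.54) was -0.44 with no filter, where the median gene itself moved to 0.03, and -0.58 to -0.47 with 1 library left out. That of the other members (-0.03) was 0.065 with no filter and -0.08 to 0.02 with 1 library left out. GSPT1 alone among the members described by library changed side of the median gene, from 0.02 to -0.020 with limma-voom, and with 1 library left out it ran from -0.082 to 0.15, below 0 when WT replicate 2, WT replicate 3 or K700E replicate 1 was left out. The cause was not tested.

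The deviations of same-numbered WT and K700E libraries from their group means had correlations of 0.28, -0.19 and 0.30 across genes. Those of different-numbered libraries ran from -0.48 to 0.43. Such values cannot settle whether the replicate numbers pair the samples, and 0 members were called with the replicate block. At these depths counting error is small for the tested members. The spread between 3 libraries per group, some of it along GC content, sets the precision.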
